A study of Solanum lycopersicum with 15 samples.

Results

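A group of 162 genes, of 34688 in the count table, was higher in all 6 *slexo1* hairy root libraries than in any of the other 9 libraries, while its mean in *slscz* stayed near that of wild type. The genes were selected on these values. Counts were expressed as CPM (the share of the library total times 1e6) on the scale log2(CPM+1). A gene was taken when every *slexo1* library lay above all wild-type and *slscz* libraries, when the *slexo1* mean was at least 0.6 above the wild-type mean, and when the *slscz* mean was within 0.4 of it. The first condition left 634 genes, the second 303 and the third 162. Of the genes that the third condition removed, 13 were more than 0.4 above wild type in *slscz* and 128 were more than 0.4 below it. The same conditions turned round, for genes lower in *slexo1* only, gave 66 genes. This balance depended on the scaling, with 92 genes raised and 110 lowered under TMM library sizes and 90 raised and 114 lowered under DESeq2 size factors.

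The roots were tomato (*Solanum lycopersicum*, cv M82) hairy roots, which grow from wounded cotyledons after transformation with *Rhizobium rhizogenes*, on MS medium with vitamins and 3% sucrose. The genotypes profiled were control (wild-type) roots formed with no binary vector, CRISPR/Cas9-edited *slexo1* roots of the lines *slexo1-hr6* and *slexo1-hr7*, and edited *slscz* roots of the lines *slscz-hr5* and *slscz-hr12*. Each line and the wild type had 3 libraries, each made from the terminal 3 cm of 6 to 7 pooled root tips with QuantSeq, which reads the 3′ ends of transcripts. Each mutant line is 1 transformed root line, the edited roots had also received a Cas9 vector that the wild type had not, and the pooled tips hold all cell types of the root, so a change in the number of cells of a type and a change of RNA per cell cannot be told apart.

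The tomato exodermis, the outermost cortex layer, carries a cap of lignin on its outer side that closes the wall space to passive flow, as the Casparian strip does in the endodermis. SlEXO1 is a C2H2 zinc finger transcription factor and SlSCZ a heat-shock type transcription factor, and the study edited each of them in roots of its own. Lignin is built from phenylalanine through the phenylpropanoid pathway, in which 4-coumarate:CoA ligases activate cinnamic acids for the later steps, and the finished monolignols are joined in the wall by laccases and peroxidases.

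The *slexo1* lines carry different edits in exon 1 of *SlEXO1* (Solyc09g011120, chromosome 9), which are shown here because the lines compared further on differ in these alleles, besides being separate transformed roots. In the guides and the *slexo1-hr6* alleles, capitals mark the run of 1 base that is 1 base longer in the allele. In the *slexo1-hr7* alleles, capitals mark the stretch that reads as the reverse complement of the sequence at the other guide. All are written as the study's table of edits lists them, and the *slexo1-hr6* allele at guide 2 has 2 T in place of 1, while that at guide 3 has 3 A in place of 2.
guide 2: gagcacttggagggtgTata
*slexo1-hr6* at guide 2: cacttggagggtgTTatatggccaccaag
*slexo1-hr7* at guide 2: ggagggtgtTTGGAACCCCAGAG
guide 3: tgcctctggggttccAAtta
*slexo1-hr6* at guide 3: tctggggttccAAAttagggtttcttc
*slexo1-hr7* at guide 3: TGGTGGCCATATttagggtttctt

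The libraries held between 2726538 and 8942833 counts (median 4800487). Wild-type libraries held 10 to 21 counts of the edited gene itself (2.23 to 4.48 CPM) and *slexo1* libraries 18 to 27 (3.32 to 6.33 CPM). Where these 3′ reads lie relative to the edited exon was not examined, so the counts do not check the labels. Scaling to the library total placed the median of all 16189 genes that passed a filter on low counts 0.13 above wild type in *slexo1* and 0.05 above it in *slscz*. With TMM library sizes this shift was 0.03 and 0.02. The 8 endodermal regulators found in the table summed to 80.6 to 116 CPM in the *slexo1* libraries, 117 to 133 CPM in wild type and 102 to 142 CPM in *slscz*, and none was at 0 in all libraries. In *slexo1*, 2 of the 7 tested, SlCASP1 and SlCASP3, homologues of Arabidopsis Casparian strip domain proteins, were called lower than in wild type and 0 higher. Of all genes, 4.95% were called lower and 3.89% higher. In the study, reporter fusions of SlCASP1 and SlCASP2 but not SlCASP3 localized to the strip, and *SlCASP3* was expressed in endodermis, cortex and exodermis. SlCASP1 was at 12.1 to 19.9 CPM in *slexo1* and 22.5 to 31.8 CPM in wild type, and SlCASP3 at 24.9 to 45.2 and 44.8 to 57.1 CPM. The other 5 tested (SlMYB36, SlMYB36-b, SlCASP2, SlSGN3 and SlSHR) were not called, and their ranges overlapped those of wild type. The 19 exodermis-enriched transcription factors found in the table summed to 294 to 333 CPM in *slexo1*, 252 to 286 CPM in wild type and 189 to 253 CPM in *slscz*. Of the 15 tested, 2 were called higher in *slexo1* than in wild type and 3 lower, with a median log2 fold change of -0.04. Much of the higher sum was SlNAC041, at 123 to 157 CPM in *slexo1* and 88.9 to 101 CPM in wild type. SlSHN1 was at 4.81 to 10.3 CPM in *slexo1* and 2.69 to 3.24 CPM in wild type. SlATHB-5 was at 2.57 to 14.4 CPM in *slexo1* and 1.34 to 2.23 CPM in wild type. Others went the other way, with SlNUC at 0.253 to 1.54 CPM in *slexo1* and 4.36 to 8.06 CPM in wild type. SlMYB54 was at 3.04 to 5.81 CPM in *slexo1* and 6.60 to 10.75 CPM in wild type. None of the genes in these lists is among the 162, and the part of these differences in the values below was not tested. Both *slexo1* libraries numbered 4 stood below the other 4 *slexo1* libraries over the 162 genes, as described below.

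Most of the 162 differences were of moderate size. The *slexo1* mean exceeded the wild-type mean by a median of 0.85 on log2(CPM+1), with a range of 0.60 to 3.18. The difference was under 0.8 in 71 genes, at least 1 in 51 and at least 2 in 4. By the ratio of mean CPM, 83 genes were at least 2-fold higher. With TMM library sizes the median difference was 0.75 and the smallest 0.49, all above 0, and 126 of the 162 genes still had every *slexo1* library above the other 9. In *slscz* the same genes had a median difference from wild type of -0.04. The *slscz* mean was above the wild-type mean in 70 genes and below it in 90, and within 0.1 of it in 59.

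**Figure D1:**
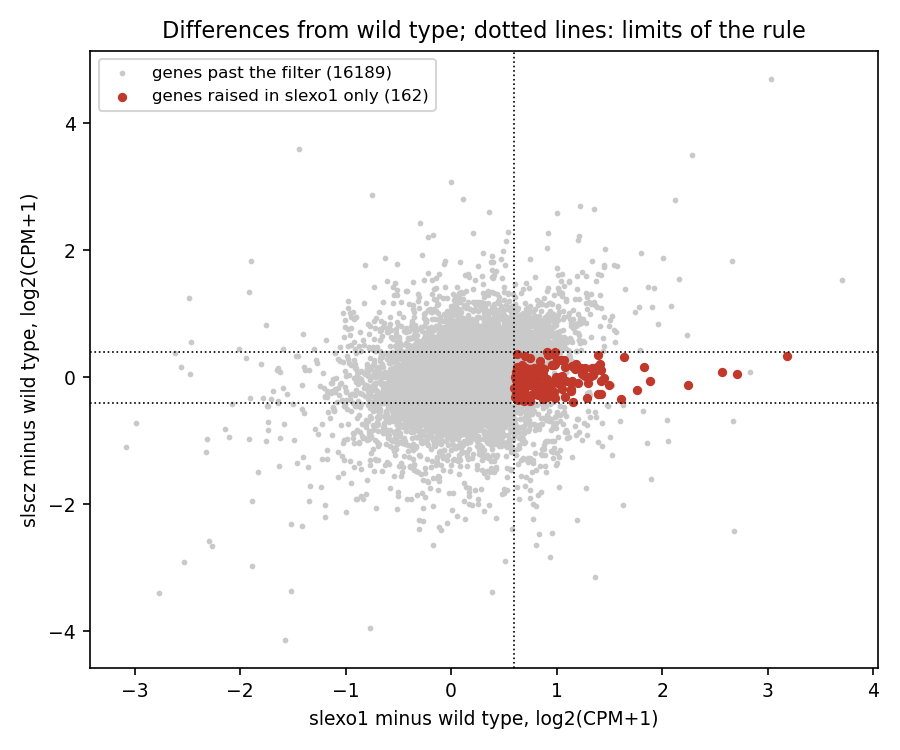
Difference from wild type in *slexo1* (horizontal axis) and *slscz* (vertical axis), each in log2(CPM+1), for the 16189 genes past the filter (grey) and the 162 selected genes (red). Dotted lines mark the limits of 0.6 and ±0.4 that the selection used, and the 4 red points beyond 2 are the genes with the largest differences.

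The gap between the lowest *slexo1* library and the highest other library had a median of 0.18 on log2(CPM+1). It was at least 0.5 in 17 genes, at least 1 in 4 and under 0.1 in 46. The genes nearest the limits show how fine the selection was. Solyc09g014280 entered at the limit, with a difference of 0.60, and Solyc08g078340 stayed out with 0.5993. Solyc08g079470 entered with its *slscz* mean 0.3971 above wild type, and Solyc03g117420 stayed out with a *slscz* difference of -0.4072. Solyc10g047170 entered with a gap of 0.0027, while Solyc04g058170 stayed out because 1 *slexo1* library had 0 counts, as all other genotypes' libraries did.

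The 162 genes together made up 0.786% to 1.02% of the counts in the *slexo1* libraries, 0.423% to 0.502% in wild type and 0.418% to 0.505% in *slscz*. Their summed level was 8809 ± 889 CPM in *slexo1* (SD, n = 6), 4702 ± 420 CPM in wild type (SD, n = 3) and 4732 ± 351 CPM in *slscz* (SD, n = 6). The lowest *slexo1* sum was 7860 CPM and the highest sum elsewhere was 5050 CPM. These sums follow from the selection and are given as a description.

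**Figure D2:**
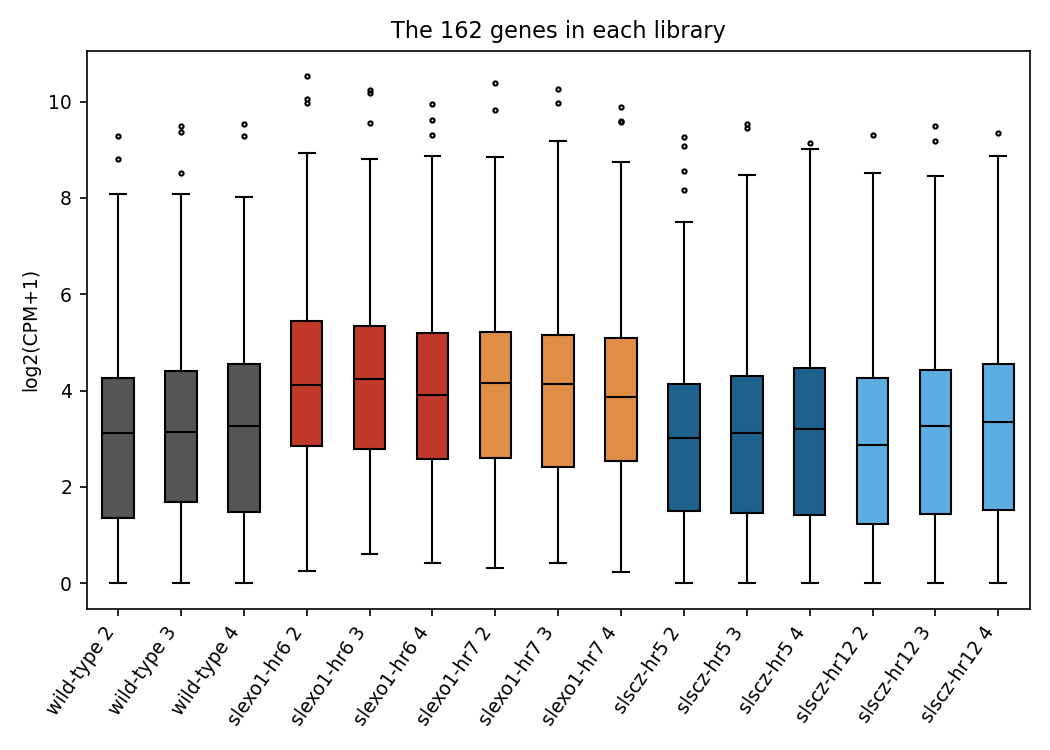
Levels of the 162 genes in each of the 15 libraries, in log2(CPM+1). Boxes span the quartiles, the line is the median, whiskers reach at most 1.5 times the box height, and colours mark wild type and the 4 mutant lines. The medians of the *slexo1* libraries lie between 3.86 and 4.25 and those of the other 9 between 2.86 and 3.35.

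Within *slexo1*, the 2 libraries numbered 4 were the lowest. Their median levels over the 162 genes were 3.92 in *slexo1-hr6* and 3.86 in *slexo1-hr7*, against 4.13 to 4.25 in the other 4. The libraries numbered 4 set the lowest *slexo1* value in 81 genes, 32 in *slexo1-hr6* and 49 in *slexo1-hr7*, and in 127 genes their mean was below that of the libraries numbered 2 and 3. The same counts over all genes past the filter were not computed, so these are not shown to be particular to the 162. The median difference from wild type was 0.72 from the libraries numbered 4 and 0.92 from those numbered 2 and 3. That all 162 genes were above 0 in each follows from the selection. Among the other genotypes, *slscz-hr12* 4 was the highest library in 41 genes, more often than any other. Without the 5 libraries numbered 4 the selection held 476 genes, 135 of them among the 162, and the median difference of the 162 was 0.92. With 5 libraries fewer the first condition is easier to meet. Leaving out all libraries numbered 2, or all numbered 3, was not run, so the rise to 476 cannot be assigned to the libraries numbered 4. The numbers are those of the table's columns, and what they stand for is not given in the sources used here.

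Names are known for 2 of the genes. Solyc07g008360 is named by the study as the 4CL1 ligase, a 4-coumarate:CoA ligase of the phenylpropanoid pathway. It was at 7.47, 8.50 and 4.42 CPM in *slexo1-hr6*, 3.04, 2.49 and 1.85 CPM in *slexo1-hr7*, and 1.19, 1.01 and 0.67 CPM in wild type. In *slscz* it was at 0.37, 0.34 and 0.72 CPM in *slscz-hr5* and 0.80, 0.54 and 1.04 CPM in *slscz-hr12*. All *slexo1* libraries were above all others, and the 3 *slexo1-hr6* libraries were above the 3 *slexo1-hr7* libraries. The *slexo1* mean was 4.63 ± 2.75 CPM (SD, n = 6), 4.84 times the wild-type mean of 0.956 ± 0.267 CPM (SD, n = 3), and the wild-type libraries held at most 9 counts. The difference on log2(CPM+1) was 1.39, and 0.65 with a constant of 5 CPM in place of 1.

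Solyc01g102895 is annotated as a germin-like protein, a family of secreted proteins of the cell wall. Its levels were 26.4, 32.2 and 10.9 CPM in *slexo1-hr6* and 24.6, 20.8 and 12.8 CPM in *slexo1-hr7*, against 6.57, 4.47 and 4.67 CPM in wild type. In both *slexo1* lines the library numbered 4 was the lowest. The *slscz* lines differed from each other, with 2.93, 3.23 and 1.44 CPM in *slscz-hr5* and 7.20, 8.96 and 6.46 CPM in *slscz-hr12*. The first line lay below the wild-type range and the second reached above it, so that the *slscz* mean of 5.04 CPM, near the wild-type mean of 5.24 CPM, describes neither line. The gene with the nearest identifier, Solyc01g102890, was not selected. It was at 11.1 to 28.1 CPM in *slexo1* but at 12.8 CPM in 1 wild-type library, where the others had 1.90 and 3.56 CPM. In *slscz* it was at 0.734 to 2.92 CPM, mostly below the wild-type range, so it missed the *slscz* condition as well. In limma-voom it was called higher in *slexo1* than in wild type (log2 fold change 2.31, adjusted p = 0.00156).

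The other 160 genes have no name in the files or the study and are given by identifier. The gene with the widest gap, Solyc08g150141, had 0 counts in all wild-type libraries and in 5 of the 6 *slscz* libraries, with 2 counts in *slscz-hr12* 4. In *slexo1* it was at 7.47, 5.15 and 5.78 CPM in *slexo1-hr6* and 4.05, 3.65 and 4.20 CPM in *slexo1-hr7*, from 16 to 39 counts per library. Its *slexo1* mean of 5.05 CPM was at least 7.98-fold higher than the wild-type floor of 0.633 CPM, the mean of 3 counts per library.

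Solyc07g009080 was at 20.9, 22.7 and 13.3 CPM in *slexo1-hr6* and 21.7, 16.1 and 11.5 CPM in *slexo1-hr7*, against 1.19, 2.80 and 1.56 CPM in wild type and 0.80 to 3.02 CPM in *slscz* (median 2.11). The *slexo1* mean was 9.56 times that of wild type, and wild type and *slscz* overlapped. The genes described from here on were chosen after their values were seen. Solyc03g116120 had the largest difference of the 162, 3.18 on log2(CPM+1). It was at 14.7, 19.1 and 13.4 CPM in *slexo1-hr6* and 19.0, 20.4 and 8.73 CPM in *slexo1-hr7*, against 0.90, 1.12 and 0.45 CPM in wild type and 0.62 to 2.21 CPM in *slscz* (median 1.23). The lines overlapped fully, and the ratio of the *slexo1* to the wild-type mean was 19.4.

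Solyc08g006410 was nearly constant in wild type at 8.71, 8.64 and 8.96 CPM. It was at 68.0, 60.0 and 38.0 CPM in *slexo1-hr6* and at 39.0, 38.4 and 37.4 CPM in *slexo1-hr7*, and between 3.33 and 14.8 CPM in *slscz* (median 8.08). Its *slexo1* mean was 5.34 times that of wild type. None of its values was a whole number, which marks reads shared with another sequence, so its own level is uncertain.

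**Figure D3:**
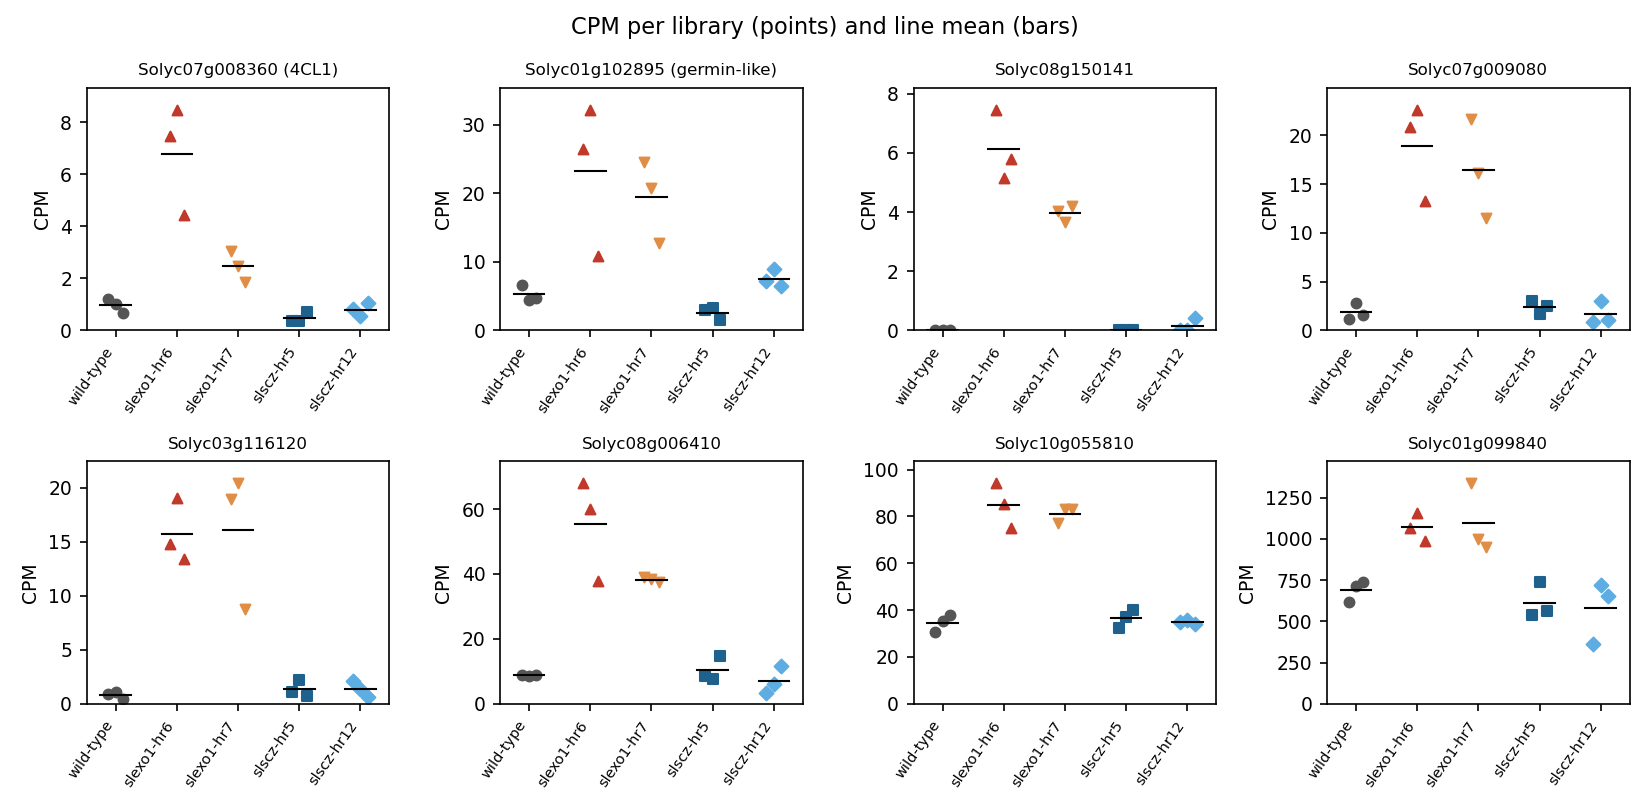
CPM in each library (points) and the mean of each line (bars) for 8 of the 162 genes, each panel with its own axis from 0. In all 8 panels the *slexo1* points lie above all other points, as the selection requires. The *slexo1-hr6* points lie above the *slexo1-hr7* points for 4CL1 and Solyc08g150141.

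The genes covered a wide range of levels. In *slexo1*, 18 genes had a mean of at least 100 CPM, 105 of 5 to under 100 CPM and 39 under 5 CPM. The median difference from wild type on log2(CPM+1) was 0.88, 0.83 and 0.93 in these classes, and the median ratio of mean CPM was 1.85, 1.84 and 3.02. The constant of 1 CPM compresses differences of low genes, and the selection was made on that scale. The highest of all was Solyc01g099840, at 1064, 1157 and 988 CPM in *slexo1-hr6* and 1338, 998 and 948 CPM in *slexo1-hr7*. In wild type it was at 620, 716 and 737 CPM, and in *slscz* between 364 and 739 CPM (median 609), and the ratio to wild type was 1.57.

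Solyc08g006860 differed more, at 122, 114 and 125 CPM in wild type, 296, 379 and 233 CPM in *slexo1-hr6* and 357, 346 and 248 CPM in *slexo1-hr7*, with 90.4 to 184 CPM in *slscz* (median 140). Its mean was 2.57 times that of wild type. Solyc09g018750 differed less from *slscz* than from wild type. It was at 390 to 463 CPM in *slexo1* (median 409), 267 to 361 CPM in *slscz* (median 340) and 272, 247 and 245 CPM in wild type, so that its *slscz* mean lay between those of the other 2 genotypes.

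Some of the genes with wide gaps varied little within wild type. Solyc01g005220 was at 34.3, 33.8 and 32.9 CPM in wild type and 53.0 to 59.3 CPM in *slexo1* (median 56.4), and at 19.1 to 34.8 CPM in *slscz* (median 25.6). Solyc10g084400 was at 63.6, 61.2 and 61.7 CPM in wild type, 157, 135 and 131 CPM in *slexo1-hr6* and 107, 117 and 108 CPM in *slexo1-hr7*, with 51.0 to 73.9 CPM in *slscz* (median 62.2). In the first gene the *slscz* values were mostly below wild type, and in the second they lay on both sides of it.

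Solyc04g079240 was at 10.3, 12.1 and 11.6 CPM in *slexo1-hr6* and 14.2, 10.8 and 10.2 CPM in *slexo1-hr7*, against 1.79, 4.70 and 4.45 CPM in wild type and 1.87 to 4.85 CPM in *slscz* (median 3.26). Solyc07g005390 was scarcely detected outside *slexo1*, with means of 0.112 CPM in wild type and 0.106 CPM in *slscz*, and reached 2.08 ± 0.70 CPM in *slexo1* (SD, n = 6). Solyc09g005500, also highly expressed, varied widely within each genotype. It was at 118, 366 and 240 CPM in wild type, 998, 747 and 631 CPM in *slexo1-hr6* and 424, 580 and 772 CPM in *slexo1-hr7*, with 118 to 242 CPM in *slscz* (median 189), and none of its values was whole.

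The *slscz* condition was set on the mean of both lines, and single lines departed from it. In 34 of the 162 genes at least 1 *slscz* line was more than 0.4 from wild type, and in 128 both were within 0.4. *slscz-hr5* was more than 0.4 above wild type in 5 genes and more than 0.4 below in 15, and *slscz-hr12* was above in 9 and below in 6. In 1 gene, the germin-like Solyc01g102895, the lines departed in opposite directions. Its log2 fold change of *slscz-hr5* against *slscz-hr12* in limma-voom was -1.59 (standard error 0.62, adjusted p = 0.926), with adjusted p between 0.109 and 1 under the alternatives. Of the 149 genes that passed the filter, 0 were called between the *slscz* lines in limma-voom, where 0.105% of all genes were. An unadjusted p under 0.05 was found for 8 (5.37%, against 4.77% of all genes). By edgeR 0 were called and 10 had an unadjusted p under 0.05, and by DESeq2 0 and 9.

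Between the *slexo1* lines, which the selection did not set against each other, the members were on the whole a little higher in *slexo1-hr6*. The median difference from wild type was 0.89 in *slexo1-hr6* and 0.79 in *slexo1-hr7* on log2(CPM+1). It reached 0.6 in 155 and 127 genes, and in both lines in 120. In limma-voom, 98 of the 149 genes tested (65.8%) were higher in *slexo1-hr6*, against 49.4% of all 16189, with median log2 fold changes of 0.10 and -0.003. None of the 149 was called between these lines (limma-voom, adjusted p up to 0.05 with at least 1.3-fold change), where 0.346% of all genes did. An unadjusted p under 0.05 was found for 17 of the 149 (11.4%), against 7.19% of all genes, and by edgeR and DESeq2 0 were called, with 13 and 10 at an unadjusted p under 0.05.

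4CL1 had the largest difference between the lines. Its log2 fold change of *slexo1-hr6* against *slexo1-hr7* was 1.38 (standard error 0.32), with an adjusted p of 0.0884 in limma-voom, which misses the threshold. Without *slexo1-hr6* 4 it was 1.69, with an adjusted p of 0.019, and under the alternatives the adjusted p ranged from 0.019 to 0.411. Solyc05g055343 came next by p, with a log2 fold change of 0.92 (standard error 0.25, limma-voom adjusted p = 0.235). It was at 7.08, 6.18 and 6.63 CPM in *slexo1-hr6* and 4.30, 2.66 and 3.86 CPM in *slexo1-hr7*, without overlap, against 0.45 to 1.19 CPM in wild type.

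**Figure D4:**
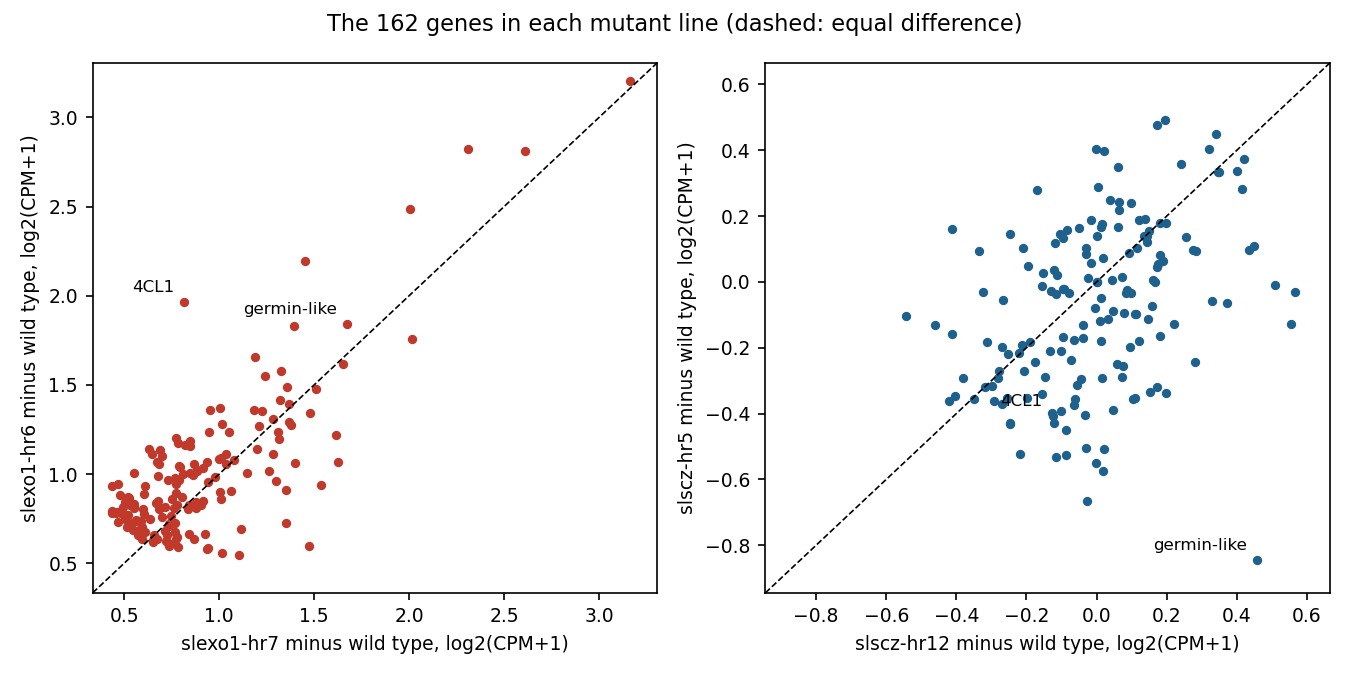
Difference from wild type of the 162 genes in the lines of each genotype, in log2(CPM+1), with *slexo1-hr6* against *slexo1-hr7* (left) and *slscz-hr5* against *slscz-hr12* (right). The dashed line marks equal differences. All *slexo1* points lie above 0 in both lines, which follows from the selection, and 109 of 162 are higher in *slexo1-hr6*. 4CL1 and the germin-like gene lie far from the dashed line in the left and the right panel.

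The genotype contrasts were part of the selection, so the counts of calls only describe the genes. In limma-voom, 117 of the 149 genes past the filter were called higher in *slexo1* than in wild type, where 3.89% of all genes were. With 1 wild-type library left out the number fell to 63 (library 2), 49 (library 3) or 66 (library 4). In *slscz* against *slexo1*, 143 of the 149 were called lower, where 12.8% of all genes were. In *slscz* against wild type 0 were called in either direction by limma-voom, where 15.2% of all genes were, and 0 by edgeR and DESeq2. An unadjusted p under 0.05 was found for 9 of the 149 (29.9% of all genes) by limma-voom and for 8 each by edgeR and DESeq2. In limma-voom 4 of them, Solyc03g113040, Solyc09g018750, Solyc01g100500 and Solyc08g014610, had an adjusted p of 0.0186 to 0.0465 and missed only the 1.3-fold limit (0.38 on the log2 scale), with log2 fold changes of 0.26 to 0.36. The selection limit of 0.4 for *slscz* leaves little room above that limit. In 8 of the alternatives 1 to 4 genes were called, most often Solyc03g123370, at 40.0 to 54.8 CPM in *slscz* (median 47.7) and 53.2, 60.6 and 67.7 CPM in wild type. Its *slexo1* libraries were at 80.2 to 115 CPM (median 96.9).

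The low end of the group rests on few counts. The 13 genes that did not pass the filter had *slexo1* means of 0.682 to 2.02 CPM and between 1 and 5 counts in their lowest *slexo1* library. In all, 139 genes had at least 10 counts in every *slexo1* library, 3 had 0 counts in all wild-type libraries and 2 had 0 in all *slscz* libraries. Solyc11g021360, at 0 in both, had a *slexo1* mean of 1.17 CPM, at least 1.85-fold above the wild-type floor and at least 1.60-fold above the *slscz* floor of 0.732 CPM. Values that were not whole numbers, which arise where reads fit more than 1 sequence, occurred in 22 genes and made up most values in 14. Among these were the highly expressed Solyc00g500358, Solyc09g005500 and Solyc01g006580, whose own levels are uncertain for this reason.

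The identifiers give the chromosome and the order of the genes. Chromosome 1 held 37 of the 162 genes (22.8%), where it held 13.0% of all genes past the filter, and chromosome 9, which carries *SlEXO1*, held 19 (11.7%, against 7.22%). Chromosome 5 held 3. Among genes past the filter, 1.71% of those on chromosome 1, 1.63% on chromosome 9 and 0.28% on chromosome 5 were members, against 0.92% in all. On chromosome 1, 13 members lay between Solyc01g005210 and Solyc01g010020, a stretch chosen after seeing the values, where they made up 5.24% of the 248 genes past the filter. Their differences from wild type ranged from 0.69 (Solyc01g007780) to 1.27 (Solyc01g006520) on log2(CPM+1), and their *slexo1* means from 2.61 CPM (Solyc01g006530) to 319 CPM (Solyc01g006580).

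**Figure D5:**
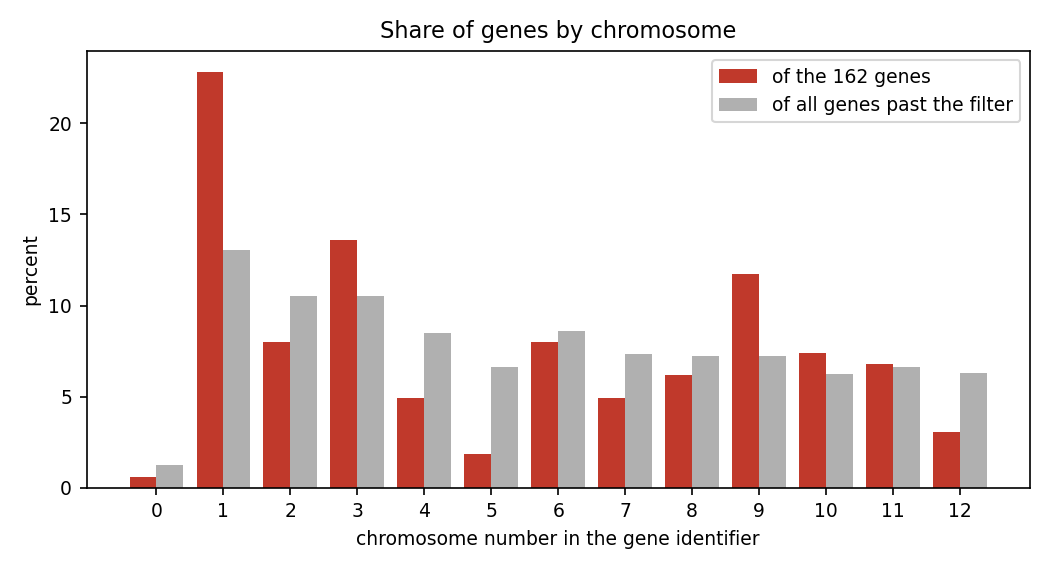
Share of the 162 selected genes (red) and of the 16189 genes past the filter (grey) by the chromosome number in the identifier, in percent, where 0 stands for sequence not assigned to a chromosome. The bars stand farthest apart on chromosome 1, at 22.8% and 13.0%, and on chromosome 5 the red bar is at 1.85% and the grey bar at 6.63%.

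In 11 places, 2 members lay within 3 identifiers of each other, which involved 22 genes. How many such places other sets of this size would hold was not computed, so the number is a description only. Solyc10g055810 and Solyc10g055820 are direct neighbours. The first was at 75.1 to 94.2 CPM in *slexo1* (median 83.1), 30.8, 35.1 and 37.8 CPM in wild type and 32.3 to 40.0 CPM in *slscz* (median 35.3). The second was at 45.5 to 84.3 CPM in *slexo1* (median 55.3), 38.5, 34.6 and 29.0 CPM in wild type and 29.0 to 43.4 CPM in *slscz* (median 39.1). The first had one of the widest gaps of the 162, while in the second the lowest *slexo1* library came close to the highest *slscz* library, and 73.3% of the values of the second were not whole.

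Solyc01g066440 and Solyc01g066450, also neighbours, held whole counts in all libraries. Solyc01g066440 was at 8.33 to 12.3 CPM in *slexo1* (median 11.3), against 4.78, 6.37 and 5.79 CPM in wild type and 2.92 to 6.24 CPM in *slscz* (median 5.45). Solyc01g066450 was at 22.8 to 38.9 CPM in *slexo1* (median 25.5), against 11.9, 15.9 and 16.9 CPM in wild type and 11.7 to 17.9 CPM in *slscz* (median 13.7). The ratios to the wild-type mean were 1.93 and 1.95. Neighbouring genes can share reads where their transcripts overlap, which was not tested.

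Around *SlEXO1*, within 50 identifiers on either side, 4 of the 62 genes past the filter were members: Solyc09g010780, Solyc09g011190, Solyc09g011470 and Solyc09g011490. Over all chromosomes 0.92% of the genes past the filter were members, and on chromosome 9 1.63%. The nearest, Solyc09g011190, lies 6 identifiers away. It was at 4.98, 2.83 and 2.89 CPM in *slexo1-hr6*, 3.29, 3.99 and 4.37 CPM in *slexo1-hr7* and 0.60, 1.79 and 0.67 CPM in wild type, with 0.54 to 1.87 CPM in *slscz* (median 0.939). Its difference from wild type on log2(CPM+1) was 1.19 in *slexo1-hr6* and 1.32 in *slexo1-hr7*.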

How the data were processed

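RNA was sequenced from 15 hairy root libraries, 3 of each of 5 groups. The authors trimmed the single-end reads and assigned them to ITAG4.1 transcripts by pseudo-alignment with kallisto (version 0.46.2 in the submitters' processing notes), and deposited the estimated counts with no normalization. Between 4.01% and 5.38% of a library's values differed from a whole number by more than 1e-06. The table numbers the columns of each group 2 to 4. Since wild-type samples are labelled 1 to 3, their columns were used as a group, and for *slexo1-hr7* the titles give 1 to 3 and the descriptions, which were followed, 2 to 4. In QuantSeq data CPM needs no length correction, and floors of 3 counts cover counting error only.

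CPM and log2(CPM+1) were computed here from the unrounded values. For tests, counts were rounded, filtered by filterByExpr of edgeR 4.0.16 (minimum count 10, minimum total 15), scaled by TMM and fitted on all 15 libraries with limma-voom 3.58.1 in R 4.3.3, with Benjamini-Hochberg adjustment over 16189 genes. A call needed an adjusted p of at most 0.05 and a 1.3-fold change. Alternatives were the quasi-likelihood test of edgeR, DESeq2 1.42.0, other scalings, no filter, a replicate block and leaving out single libraries. The scripts were tested on simulated data.

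The members and lists were chosen with earlier results of these data known. Named are members annotated by the study, the 2 others with the widest gap and those at the limits; the rest are named as chosen after their values were seen. Of the 34688 identifiers, 0 matched the RefSeq table, so lists by annotation could not be applied. The labels do not say whether replicates are separate cultures (the study calls them biological), and p-values measure the spread between these libraries.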

Additional observations from a re-analysis of the deposited data

Results flagged for a closer look

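Of 34 groups of 6 libraries (17 of the genes, 2 genotypes each) examined for a library far from the others, 1 was found, where chance gives about 1 in 20 for values that vary continuously. In *slscz*, Solyc08g150141 was at 0.417 CPM (2 counts) in *slscz-hr12* 4 and at 0 in the other 5 libraries, so that the whole range of the group came from that library (gap divided by range 1.0). With the other libraries at 0, any count in the sixth would have given this value.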

How the results depend on the processing

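The number of genes depended on the scaling and the limits. The rule gave 162 genes with column totals, 92 with TMM and 90 with DESeq2 library sizes, 165 and 114 with constants of 0.5 and 5 CPM, 51 with a rise of at least 1 and 102 with *slscz* within 0.2 of wild type. Leaving out 1 library gave 159 to 217 genes, of which 129 to 161 were among the 162, and leaving out all 5 libraries numbered 4, an alternative chosen after seeing the data, gave 476. Fewer libraries make the first condition easier to meet.

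For the 149 tested genes, the 117 calls higher in *slexo1* than in wild type became 103 to 133 under the other methods and 49 to 118 with 1 library left out. Calls in *slscz* against wild type numbered 0, 1 with library size only and 0 to 4 with 1 library left out, and those between the *slexo1* lines 0 and 0 to 1. Between the *slscz* lines 0 were called under all alternatives run. The main fit did not use the replicate numbers to pair the libraries. Same-numbered libraries of *slexo1-hr6* and *slexo1-hr7* deviated from their line means with correlations of 0.118, 0.008 and 0.224, and those of *slscz-hr5* and *slscz-hr12* with 0.182, 0.0996 and 0.415, and not every library correlated best with its own number. The libraries numbered 4 correlated with each other in all 6 pairs of mutant lines (0.119 to 0.415). Wild-type 4 correlated with them only weakly (0.0192 to 0.0667). With the libraries numbered 2 and 3 of the other mutant lines, the mutant libraries numbered 4 correlated negatively (-0.2701 to -0.0099). Deviations from a line mean cancel out within the line, so these negative values largely follow from the positive ones and add no separate evidence. By the positive correlations, the main fit leaves a component shared by the mutant libraries numbered 4 in the spread. With the replicate number as a block, 106 of the 149 genes were called higher in *slexo1* than in wild type. Genes under about 10 counts per library are limited by depth.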
